A study of Mus musculus with 11 samples.

Results

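Alveolar macrophages of newborn female mice were compared after exposure to 95% oxygen and in normoxia, across all genes of a bulk RNA-seq count table. The comparison uses 6 of the 11 libraries of the series, chosen by their labels alone: 3 from female pups held in hyperoxia from postnatal day 1 to 5 (HF1, HF2 and HF3) and 3 from female pups kept in normoxia (NF1, NF2 and NF3). All 11 libraries came from wild-type C57BL/6 pups, and the cells were sorted by flow cytometry from lung homogenates on postnatal day 7, after the end of the exposure. The other 5 libraries are male, 3 from normoxia and 2 from hyperoxia (replicates 2 and 3), and serve here only to set the female response beside that of the other sex. By its title the series asked about sex as a variable in neonatal alveolar macrophages. Whether 1 animal or a pool of animals stands behind a library is not in the labels, so a p-value here measures only how these libraries vary, in part perhaps for technical reasons. The table lists 57180 gene identifiers, of which 17039 had enough counts in the 6 libraries to be tested.

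Alveolar macrophages are the resident phagocytes of the air spaces. They mature in the first days after birth under the cytokine GM-CSF, which switches on the nuclear receptor PPARg, and they clear spent surfactant by taking up its lipids, storing them in droplets, degrading them in lysosomes and burning the fatty acids in mitochondria. They also renew themselves by division in the lung. High oxygen given to newborn mice is a widely used model of the lung injury of preterm infants (bronchopulmonary dysplasia), in which oxidants damage DNA, lipids and the alveolar epithelium.

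The 6 libraries held 24146144 to 32579468 counts, so that 3 counts corresponded to 0.0908 to 0.139 CPM (counts divided by library size after scaling). They carried the defining genes of the sorted cell type. Siglecf, a sialic acid lectin that marks these cells, lay at 162 to 378 CPM, the integrin Itgax at 407 to 824 CPM, the mannose receptor Mrc1 at 1137 to 1944 CPM and Pparg at 89.9 to 139 CPM. The neutrophil gene Ly6g was at 0 in all 6, and the T cell gene Trac lay at 0.0712 to 0.980 CPM. Other genes listed for these cell types were present. A list of 15 neutrophil genes summed to 54.2 to 75.1 CPM, a large part of it Csf3r and Mmp8, which are also in other lists below. A list of 16 T and NK cell genes summed to 67.3 to 192 CPM, and to 6.70 to 17.8 CPM without Cd2. The libraries fell into 2 kinds by breadth. NF1, NF2 and HF1 had counts in 27940 to 28543 genes, and NF3, HF2 and HF3 in 33158 to 35449, and their odorant and vomeronasal receptor genes summed to 49.7 to 58.1 and to 156 to 181 CPM before scaling. Because each oxygen group has libraries of both kinds, the difference was also taken within each kind. HF2 and NF3 stood apart in other ways. HF2 carried more RNA of interferon-stimulated genes, and NF3 more erythroid RNA (haemoglobin Hbb-bs at 257 CPM against 30.7 to 86.3 in the other 5), and values without them are given where they differ.

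Of 17039 genes, 14 (0.0822%) changed at an adjusted p under 0.05 (edgeR, quasi-likelihood F-test, Benjamini-Hochberg). The 6 that rose (0.0352% of genes) were Ecm1, Ptgs1, Ldhb, Pstpip1, St14 and the predicted gene Gm26244. The 8 that fell (0.047%) were Patj, Fabp1, Pdk4, Syn1, Slc9a4, Sorbs3, Ank1 and the pseudogene Rpl35a-ps6. At an unadjusted p under 0.05 there were 1035 genes (6.07%), and the median log2 fold change of all genes tested was -0.01. Single libraries set how many genes passed. Without HF2 the count was 0 of 17991, with 566 at an unadjusted p under 0.05 and adjusted p between 0.156 and 0.396 for the 14. It was 7 without HF1, 9 without HF3, 9 without NF1 and 223 without NF3. All 14 kept their sign without HF2, and all 14 had the same sign within both kinds of library.

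**Figure D1:**
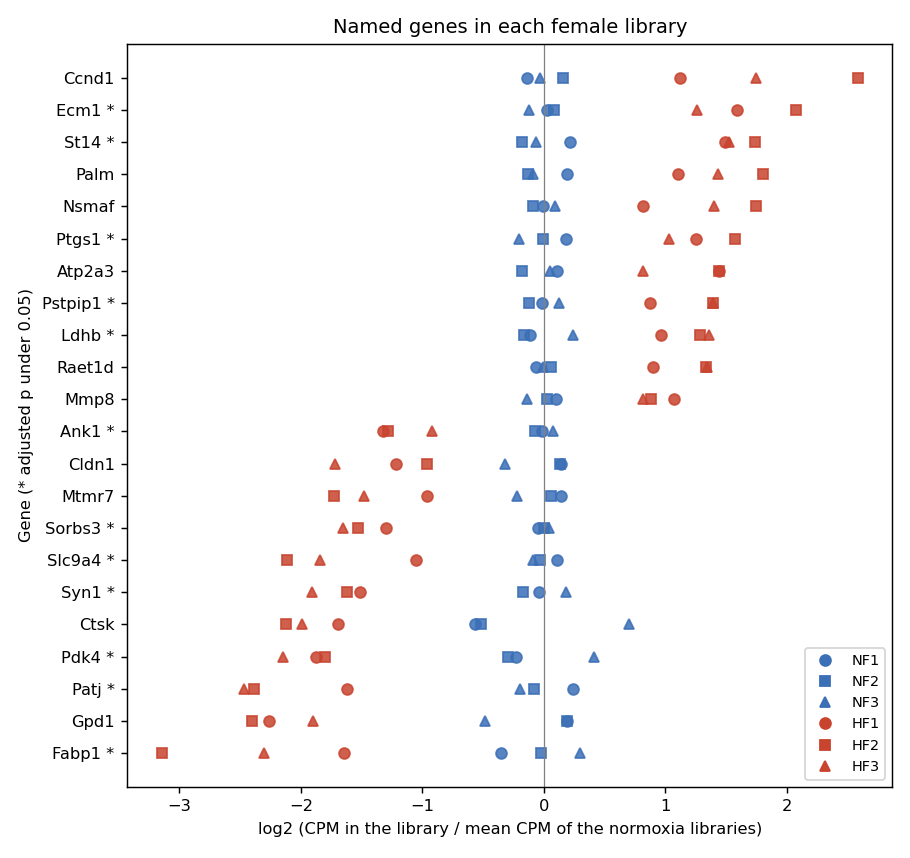
Each row is 1 gene, and each point 1 female library, placed at the log2 of its CPM over the mean CPM of the 3 normoxia libraries (blue normoxia, red hyperoxia, shape the replicate number, star an adjusted p under 0.05). In all 22 genes the 3 hyperoxia libraries lie to 1 side of the 3 normoxia libraries, and HF2 is the farthest of the 3 for Ccnd1, Ecm1 and Fabp1.

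Genes of cell division lay higher after hyperoxia. Of 36 genes for the G2 phase, mitosis and the spindle, 31 (86.1%) were higher in each hyperoxia library than in each normoxia library, against 6.76% of all genes tested, and none was lower in all 3, against 4.55%. All 36 log2 fold changes were above 0, from 0.20 to 1.04, with a median of 0.58. No member passed the test over all genes with the 6 libraries. Without NF3, where 220 of the 17039 genes passed (1.29%), Hmmr and Cdc25c did (edgeR adjusted p 0.00934 and 0.0266). The count of members apart was 31 of 36 without HF2, where 9.2% of all genes lay above in this way and 6.19% below, and 33 of 36 without NF3, where these shares were 16.6% and 16.3%. The median was 0.55 without HF2 and 0.45 without NF3, and 0.48 and 0.74 within the libraries with fewer and with more genes detected.

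Summed over the 36 genes, the level was 4119, 4329 and 3708 CPM in hyperoxia and 3175, 2983 and 2282 CPM in normoxia. The groups did not overlap, and NF3 was the lowest library. Hmmr, a microtubule-binding protein of the spindle that also binds hyaluronan, lay at 77.6, 95.6 and 84.6 CPM in hyperoxia and 47.7, 43.4 and 45.3 CPM in normoxia. Its log2 fold change was 0.92 ± 0.17 (SE; edgeR adjusted p 0.0910), so it missed the threshold although no hyperoxia library overlapped a normoxia library. Cdc25c, the phosphatase that lets cells enter mitosis, was at 8.09, 7.81 and 9.14 CPM in hyperoxia and 3.76, 3.78 and 4.65 CPM in normoxia, a log2 difference of 1.04 ± 0.22. Cyclin B2 (Ccnb2), the activating partner of the mitotic kinase CDK1, was at 61.3, 69.9 and 69.8 CPM in hyperoxia and 41.6, 41.2 and 41.8 CPM in normoxia, and the 3 normoxia libraries were almost level. Dlgap5, which stabilises spindle microtubules, was at 50.3, 49.98 and 53.6 CPM in hyperoxia and 36.3, 31.0 and 31.8 CPM in normoxia. Their edgeR adjusted p-values were 0.133, 0.223 and 0.258. Without HF2 the log2 fold changes of Hmmr, Cdc25c, Ccnb2 and Dlgap5 were 0.83, 1.09, 0.65 and 0.65.

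The genes of S phase lay higher too, by less. Of 36 genes, 18 (50%) were higher in each hyperoxia library and 0 lower, with a median log2 fold change of 0.40. Without HF2, 19 were higher at a median of 0.38, and without NF3, 24 at 0.29. The shares of all genes higher in this way were 6.76%, 9.2% and 16.6% in turn. The median was 0.33 within the libraries with fewer genes detected and 0.62 within those with more. Their summed level was 2574, 2659.7 and 2370.0 CPM in hyperoxia and 2099, 2144 and 1629 CPM in normoxia, again without overlap. Cyclin E1 (Ccne1), which drives entry into S phase, lay at 18.2, 24.4 and 24.3 CPM in hyperoxia and 12.9, 13.6 and 9.81 CPM in normoxia, a log2 difference of 0.88 ± 0.20. Rrm2, the regulated subunit of the enzyme that makes deoxyribonucleotides, was at 109, 129 and 125 CPM in hyperoxia and 80.4, 77.5 and 60.01 CPM in normoxia (0.74 ± 0.19). The replication licensing factor Cdc6 was at 22.2, 24.5 and 20.6 CPM in hyperoxia and 14.4, 15.1 and 8.65 CPM in normoxia (0.82 ± 0.22). None of the 36 passed, the edgeR adjusted p-values of Ccne1, Rrm2 and Cdc6 being 0.174, 0.284 and 0.287.

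Among 18 genes for the D cyclins, their kinases and their inhibitors, 5 (27.8%) were higher in each hyperoxia library and none lower. All genes had 6.76% higher and 4.55% lower. The list median was 0.18, and it was -0.00 without NF3. Cyclin D1 (Ccnd1), which links growth factor signals to the cell cycle, had the largest difference, 1.94 ± 0.31, with an edgeR adjusted p of 0.0552. It lay at 11.9, 32.8 and 18.3 CPM in hyperoxia and 4.96, 6.09 and 5.35 CPM in normoxia. The groups did not overlap, but HF2 was well above HF1 and HF3, and without it the log2 difference was 1.46. The inhibitors did not lie below: Cdkn1a, the p53-induced brake on CDKs, was at 69.9, 64.7 and 58.9 CPM in hyperoxia and 47.1, 49.0 and 30.3 CPM in normoxia, and Cdkn2c, a CDK4/6 inhibitor, at 23.3, 19.5 and 21.2 CPM in hyperoxia and 16.2, 16.3 and 11.4 CPM in normoxia. Their log2 differences were 0.61 ± 0.21 and 0.54 ± 0.19, and neither passed (edgeR adjusted p 0.504 and 0.539).

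Promoters of mitotic genes are known for repeated CCAAT boxes, which bind the factor NF-Y, and for the CHR element TTTGAA, which recruits the MuvB complexes that switch these genes with the cell cycle. The 250 bases before the start of each gene were read from RefSeq promoters of build GRCm38.p6, an older build than the mm39 of the counts, which held 29 of the 36 mitotic genes. The letters CCAAT, on either strand, stood in 22 of 29 (75.9%) of these windows, and at least 2 copies in 16 (55.2%). Over all 27025 genes with a window the shares were 34.5% and 10.5%, and over the 11370 of them that were tested 36.2% and 13.4%. TTTGAA stood in 8 of 29 (27.6%), against 16.3% of all windows and 10.8% of tested ones. The S phase list had CCAAT in 16 of 28 windows (57.1%). A match is a description of letters, not a measured binding site. The windows of Hmmr, which holds 5 CCAAT boxes, of Ccnb2 with 3 and a TTTGAA, and of the mitotic kinase Plk1 with 1 are examples. No mitotic window without CCAAT is shown. The examples are printed 5′ to 3′ on the strand of the gene, with CCAAT (or ATTGG, its reverse) and TTTGAA in capitals.
Hmmr, chr11:40733438-40733687 (minus strand): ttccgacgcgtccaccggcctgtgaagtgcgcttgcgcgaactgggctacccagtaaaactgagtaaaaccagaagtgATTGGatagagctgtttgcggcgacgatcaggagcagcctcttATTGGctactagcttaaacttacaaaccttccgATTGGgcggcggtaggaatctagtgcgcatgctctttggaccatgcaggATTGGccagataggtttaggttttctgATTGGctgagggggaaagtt
Ccnb2, chr9:70421555-70421804 (minus strand): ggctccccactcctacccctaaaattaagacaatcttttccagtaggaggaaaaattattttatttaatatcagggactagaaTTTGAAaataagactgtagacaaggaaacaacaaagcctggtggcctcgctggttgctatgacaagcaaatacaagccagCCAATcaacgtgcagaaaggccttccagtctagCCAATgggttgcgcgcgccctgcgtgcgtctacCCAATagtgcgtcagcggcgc
Plk1, chr7:122159185-122159434 (plus strand): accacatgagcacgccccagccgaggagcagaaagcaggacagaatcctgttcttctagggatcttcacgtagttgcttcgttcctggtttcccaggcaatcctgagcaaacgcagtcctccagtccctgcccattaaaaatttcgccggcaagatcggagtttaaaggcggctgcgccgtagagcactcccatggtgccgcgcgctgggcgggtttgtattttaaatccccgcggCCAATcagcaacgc
The 3 boxes of Ccnb2 begin 87, 54 and 21 bases before the start, and the box of Plk1 begins 14 bases before it.

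**Figure D2:**
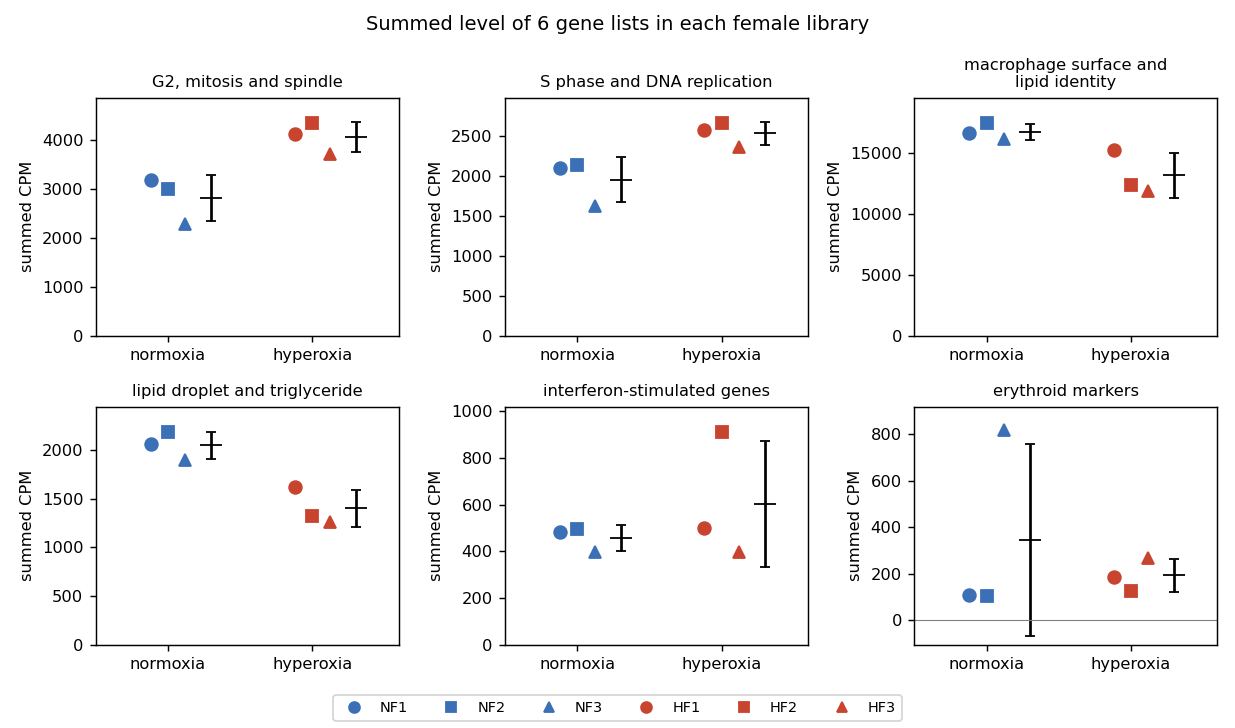
Summed CPM of the members of 6 gene lists in each female library (symbols as in the key), with the mean and SD of the 3 libraries of a group in black. Mitosis, S phase, lipid droplet and macrophage identity sums separate the oxygen groups, whereas the interferon sum is high in HF2 alone (911 CPM) and the erythroid sum in NF3 alone (821 CPM).

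Genes that mark the alveolar macrophage and its lipid handling lay lower after hyperoxia. Of 28 surface and lipid identity genes, 15 (53.6%) were lower in each hyperoxia library than in each normoxia library, against 4.55% of all genes, and 2 were higher. The median log2 fold change was -0.51, with 26 of 28 below 0. It was -0.44 without HF2, where 15 were lower, and -0.51 without NF3, where 19 were, and -0.34 within the libraries with fewer genes detected and -0.72 within those with more. Of all genes, 6.19% lay lower without HF2 and 16.3% without NF3. Without NF3, 6 members passed as lower and 1 as higher. Their sum was 15305, 12397 and 11902 CPM in hyperoxia and 16690.5, 17466 and 16168 CPM in normoxia, with no overlap and HF1 nearest to the normoxia libraries. In bulk RNA, fewer cells of a type and less RNA per cell cannot be told apart.

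Fabp1, a carrier of fatty acids in the cytosol, was the member that fell. It lay at 17.3, 6.11 and 10.9 CPM in hyperoxia and 42.2, 53.3 and 66.4 CPM in normoxia, a log2 fold change of -2.24 ± 0.33 (edgeR adjusted p 0.0486), or -1.93 without HF2 (adjusted p 0.160). Fabp1 also lost the call without NF3 (adjusted p 0.233) and with a term for the libraries with more genes detected (0.149), the one gene of the 14 to do so in each. The highest hyperoxia library, HF1, was below the lowest normoxia library, NF1. Its relative Fabp4, a direct PPARg target, was at 8.03, 4.08 and 8.16 CPM in hyperoxia and 12.1, 18.2 and 39.6 CPM in normoxia. The spread in normoxia was wide, with NF3 on top, and the difference of -1.78 ± 0.46 did not pass (edgeR adjusted p 0.335). Slc39a2, a zinc importer, was at 40.8, 37.5 and 29.9 CPM in hyperoxia and 59.9, 75.7 and 93.8 CPM in normoxia (-1.08 ± 0.21, edgeR adjusted p 0.0979). Chil3, a chitinase-like protein secreted by these cells, was at 158, 163 and 157 CPM in hyperoxia and 291, 257 and 397 CPM in normoxia, so that the 3 hyperoxia libraries were nearly equal and all below normoxia. Siglecf was at 302, 162 and 196 CPM in hyperoxia and 364, 378 and 352 CPM in normoxia, where HF1 lay much nearer to the normoxia libraries than HF2 and HF3. Other defining genes overlapped or went the other way. Pparg itself was at 130.1, 94.8 and 92.7 CPM in hyperoxia and 131, 139 and 89.9 CPM in normoxia, a log2 difference of -0.18 ± 0.23, and the scavenger receptor Marco was higher in each hyperoxia library, at 452, 433 and 367 CPM in hyperoxia and 273, 313 and 275 CPM in normoxia. The edgeR adjusted p-values of Chil3, Siglecf, Pparg and Marco were 0.169, 0.508, 0.999 and 0.622.

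The values for transcription factors of the cell type depended on NF3. Of 17, 2 were higher and 1 lower in each hyperoxia library, against 6.76% and 4.55% of all genes. The list median was -0.17. Without NF3, 3 were higher and 9 lower, with a median of -0.34, where 16.3% of all genes lay lower. The median was -0.10 within the libraries with fewer genes detected and 0.06 within those with more. Of 17 genes of GM-CSF, M-CSF and TGF-beta signalling, 2 were higher and 1 lower, with a median of -0.22. Without NF3, 2 were higher and 11 lower, with a median of -0.45, and the median was -0.18 within the libraries with fewer genes detected and 0.05 within those with more. The G-CSF receptor Csf3r was the lower one with all libraries, at 16.2, 17.0 and 10.8 CPM in hyperoxia and 42.2, 50.3 and 19.1 CPM in normoxia (-1.34 ± 0.32, edgeR adjusted p 0.247). It passed without NF3 (adjusted p 2.54e-06).

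Genes for storing and burning fat lay lower too, in lists that share members with the identity list. Cidec is also in the droplet list and Fabp1 in the carrier list. In the lipid droplet and triglyceride list, 9 of 21 (42.9%) were lower in each hyperoxia library and 1 was higher. All genes had 4.55% lower and 6.76% higher. The list median was -0.38 (-0.35 without HF2). The median was -0.20 within the libraries with fewer genes detected and -0.49 within those with more. Gpd1, which makes the glycerol 3-phosphate backbone of triglycerides, was at 0.733, 0.666 and 0.944 CPM in hyperoxia and 4.01, 4.02 and 2.51 CPM in normoxia (-2.17 ± 0.38, edgeR adjusted p 0.0815). Cidec, which fuses small droplets into large ones, was at 66.4, 34.1 and 41.8 CPM in hyperoxia and 147, 142 and 99.1 CPM in normoxia (-1.45 ± 0.26, edgeR adjusted p 0.0910). The droplet coat protein Plin2 was at 744, 619 and 595 CPM in hyperoxia and 985, 1081 and 1035 CPM in normoxia (-0.66 ± 0.21, edgeR adjusted p 0.443). Gpd1 and Cidec passed without NF3 (edgeR adjusted p 0.00181 and 0.000562). In all 3 genes the groups were apart, and no hyperoxia library reached the lowest normoxia library.

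Of 28 fatty acid oxidation genes and PPAR targets, 8 (28.6%) were lower in each hyperoxia library and 1 higher. All genes had 4.55% lower and 6.76% higher. The list median was -0.21. It was -0.32 without NF3, where 12 were lower and where 16.3% of all genes lay lower. The median was -0.06 within the libraries with fewer genes detected and -0.38 within those with more, so that the difference was small in the former. The summed level of these genes overlapped between the groups, at 3975, 3458 and 3110 CPM in hyperoxia and 4332, 4667 and 3581 CPM in normoxia. Pdk4, the mitochondrial kinase that inactivates pyruvate dehydrogenase, fell by a log2 fold change of -1.93 ± 0.30 (edgeR adjusted p 0.0486). It lay at 1.67, 1.75 and 1.38 CPM in hyperoxia and 5.22, 4.99 and 8.13 CPM in normoxia. The hyperoxia libraries were within a narrow band, and without HF2 the value was -1.99 (adjusted p 0.275). The mitochondrial carrier Ucp3, a PPAR target, was at 2.53, 1.09 and 2.395 CPM in hyperoxia and 8.50, 6.98 and 5.11 CPM in normoxia (-1.78 ± 0.35, edgeR adjusted p 0.101, and 0.00100 without NF3). The acyl-CoA thioesterases Acot1 and Acot2, close copies whose reads may be split between them, differed by -0.67 ± 0.20 and -0.62 ± 0.18. Among 14 fatty acid carriers, 4 (28.6%) were lower and 1 higher. Their median was -0.23, and it was -0.18 without HF2, -0.29 without NF3 and -0.37 without HF1. It was -0.07 within the libraries with fewer genes detected, -0.26 within those with more, and 0.02 in males. The fatty acid translocase Cd36 was one of the lower ones, at 306, 349 and 341 CPM in hyperoxia and 397, 503 and 730.1 CPM in normoxia (-0.71 ± 0.25, edgeR adjusted p 0.539). The higher one was Acsl3, which activates fatty acids at the droplet surface, at 7.46, 9.65 and 7.51 CPM in hyperoxia and 4.87, 4.88 and 4.97 CPM in normoxia (0.74 ± 0.21).

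PPARs bind repeats of AGGTCA. Over the carrier, oxidation and droplet lists together, 11 of 58 RefSeq windows (19.0%) held these letters on either strand, against 13.8% of all windows and 10.8% of tested ones. The windows of Pdk4, which also fell, and of Cidec held no copy. The window of Fabp1 is shown because this gene fell and holds 2 copies, in capitals as TGACCT, the reverse. The copies end 62 and 4 bases before the start.
Fabp1, chr6:71199629-71199878 (plus strand): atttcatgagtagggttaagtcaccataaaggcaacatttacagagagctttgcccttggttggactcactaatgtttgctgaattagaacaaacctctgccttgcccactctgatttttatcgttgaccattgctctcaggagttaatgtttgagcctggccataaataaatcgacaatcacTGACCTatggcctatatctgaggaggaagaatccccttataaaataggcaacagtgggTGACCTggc

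Other arms of lipid metabolism had at most 4 members apart in either direction with all 6 libraries, where 6.76% of all genes lay higher and 4.55% lower. Sterol synthesis had 2 of 23 higher and 0 lower (median 0.04), fatty acid synthesis 2 and 1 of 16 (median 0.04), and LXR targets, which export cholesterol, 0 and 1 of 16 (median -0.18, -0.33 without NF3). Of 18 genes that handle surfactant phospholipid, 4 (22.2%) were higher and 1 lower. Without NF3, 8 of 16 LXR targets and 7 of 18 surfactant phospholipid genes were lower and 1 and 4 higher, where 16.3% of all genes lay lower and 16.6% higher. Lpcat1, which remodels phosphatidylcholine, lay at 24.5, 39.1 and 28.1 CPM in hyperoxia and 15.8, 18.6 and 14.2 CPM in normoxia (0.92 ± 0.20, edgeR adjusted p 0.174). In the nuclear-encoded respiratory chain 0 of 36 were higher and 1 lower, although 31 of 36 log2 fold changes were below 0 (median -0.12). That median was 0.02 without NF3, and 0.09 within the libraries with fewer genes detected and -0.46 within those with more.

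**Figure D3:**
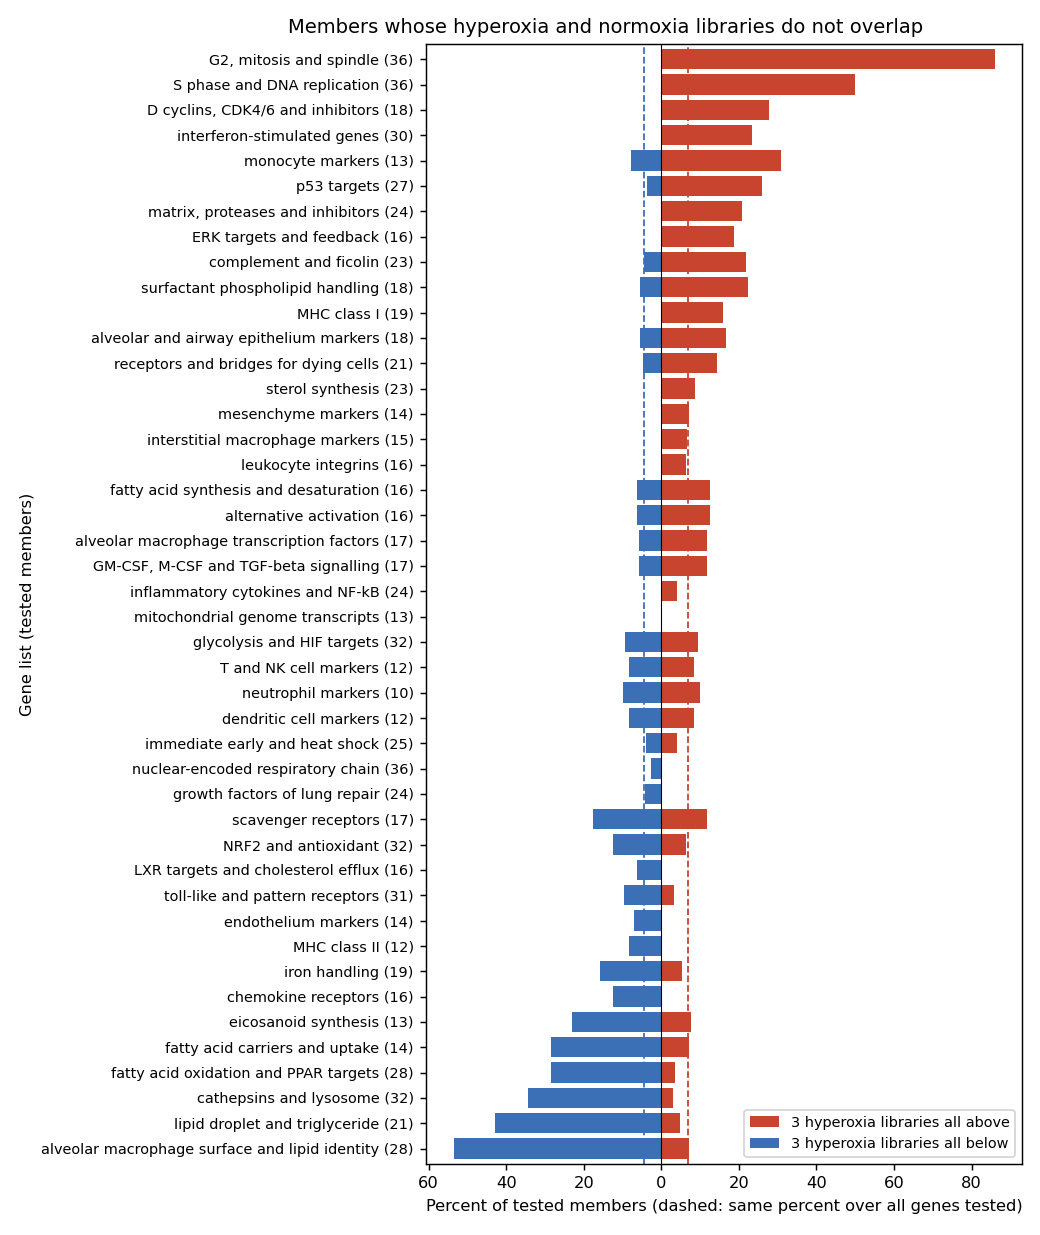
For each gene list (number of tested members in brackets, lists of at least 10), bars give the percent of members whose 3 hyperoxia libraries all lie above (red, right) or all below (blue, left) the 3 normoxia libraries, with dashed lines at 6.76% and 4.55% for all genes tested. The mitosis list stands at 86.1% above, and the identity list at 53.6% below.

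Lysosomal genes lay lower as well, in a list that shares Ctsk with the identity list. Of 32 cathepsin and lysosome genes, 11 (34.4%) were lower in each hyperoxia library and 1 was higher. All genes had 4.55% lower and 6.76% higher. The list median was -0.24 (-0.20 without HF2). It was -0.08 within the libraries with fewer genes detected and -0.34 within those with more. Without NF3, 16 were lower and 3 higher, where 16.3% of all genes lay lower and 16.6% higher. Cathepsin K (Ctsk), a collagen-degrading protease, lay at 44.4, 32.98 and 36.1 CPM in hyperoxia and 97.1, 101 and 234 CPM in normoxia, so that NF3 was far above the other normoxia libraries and all hyperoxia libraries were below all normoxia libraries. Its difference of -1.93 ± 0.32 had an edgeR adjusted p of 0.0641, and of 1.67e-05 without NF3. Ctsa, a protective carboxypeptidase, was at 445, 344 and 313 CPM in hyperoxia and 518, 548 and 456 CPM in normoxia. The cathepsin Ctsz was at 452, 381 and 308 CPM in hyperoxia and 513, 559 and 496 CPM in normoxia. For both, the 3 hyperoxia libraries lay below the 3 normoxia libraries. Their log2 differences, -0.47 ± 0.22 and -0.46 ± 0.22, did not pass (edgeR adjusted p 0.841 and 0.852). The summed level of the list overlapped between the groups, at 19977, 17687 and 19085 CPM in hyperoxia and 19792, 21801 and 26911 CPM in normoxia.

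Of the 6 genes that rose, Ecm1 and St14 belong to the matrix list, whose median difference was small. In the list of matrix proteins, proteases and inhibitors 2 of 24 passed, against 0.0822% of all genes, and the median was 0.08 (-0.10 without HF2). In each hyperoxia library 5 (20.8%) were higher and 0 lower, against 6.76% and 4.55% of all genes. Ecm1, a secreted matrix glycoprotein, lay at 12.8, 17.9 and 10.2 CPM in hyperoxia and 4.33, 4.49 and 3.90 CPM in normoxia. It rose by 1.68 ± 0.24 on the log2 scale (edgeR adjusted p 0.0438), and the lowest hyperoxia library was HF3. St14 (matriptase), a membrane-bound serine protease, rose by 1.59 ± 0.25 (edgeR adjusted p 0.0486), from 2.705, 2.07 and 2.23 CPM in normoxia to 6.56, 7.81 and 6.71 CPM in hyperoxia. The collagenase Mmp8 was at 23.4, 20.6 and 19.6 CPM in hyperoxia and 11.9, 11.3 and 10.1 CPM in normoxia (0.93 ± 0.17, edgeR adjusted p 0.0910). The elastase Mmp12 was at 37.2, 61.6 and 72.1 CPM in hyperoxia and 16.9, 12.4 and 34.4 CPM in normoxia, where NF3 came close to HF1 (1.43 ± 0.38, edgeR adjusted p 0.335).

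Ptgs1, the constitutive cyclooxygenase at the head of prostaglandin synthesis, rose by 1.30 ± 0.19 (edgeR adjusted p 0.0486) and lay at 48.1, 60.1 and 41.3 CPM in hyperoxia and 22.9, 20.1 and 17.5 CPM in normoxia. It was the only one of 13 eicosanoid genes to pass or to lie higher in each hyperoxia library. All genes had 6.76% higher and 4.55% lower, and of the eicosanoid genes 3 (23.1%) lay lower. One of these, the prostaglandin E synthase gene Ptges2, differed by -0.38 ± 0.20. Ldhb, the lactate dehydrogenase subunit that favours lactate use, lay at 31.3, 39.1 and 41.3 CPM in hyperoxia and 14.9, 14.3 and 19.0 CPM in normoxia and rose by 1.22 ± 0.19 (edgeR adjusted p 0.0486). Pstpip1, an adaptor that ties phosphatases to the actin cytoskeleton, lay at 24.4, 35.1 and 35.0 CPM in hyperoxia and 13.2, 12.3 and 14.5 CPM in normoxia and rose by 1.24 ± 0.19 (edgeR adjusted p 0.0486). In all 3 genes that rose, no hyperoxia library overlapped a normoxia library, and their values without HF2 were 1.14, 1.18 and 1.15.

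Among the other genes that fell was Patj, a scaffold of tight junctions and cell polarity. It lay at 11.9, 6.99 and 6.605 CPM in hyperoxia and 43.2, 34.4 and 31.8 CPM in normoxia, a log2 fold change of -2.10 ± 0.24 (edgeR adjusted p 0.0160). Syn1 (synapsin, a vesicle protein of neurons) was at 4.23, 3.93 and 3.23 CPM in hyperoxia and 11.8, 10.8 and 13.8 CPM in normoxia (-1.67 ± 0.21, edgeR adjusted p 0.0285). Slc9a4, a sodium-proton exchanger, was at 13.9, 6.66 and 8.06 CPM in hyperoxia and 31.2, 28.3 and 27.1 CPM in normoxia (-1.60 ± 0.25, edgeR adjusted p 0.0486). In these genes the hyperoxia libraries lay well below the lowest normoxia library. Sorbs3 (vinexin), an adaptor at focal adhesions, was at 3.93, 3.36 and 3.08 CPM in hyperoxia and 9.36, 9.72 and 9.99 CPM in normoxia (-1.49 ± 0.21, edgeR adjusted p 0.0438). Ank1, an ankyrin best known from red cells, was at 7.66, 7.90 and 10.2 CPM in hyperoxia and 19.1, 18.3 and 20.3 CPM in normoxia (-1.16 ± 0.18, edgeR adjusted p 0.0486). The normoxia libraries were level for Ank1, and the erythroid list summed to 106, 103 and 821 CPM in them. The part of erythroid RNA in the Ank1 values was not tested.

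Gm26244 and Rpl35a-ps6 had no count in any library of 1 oxygen group. Gm26244 had 118, 160 and 57 counts in HF1, HF2 and HF3 and 0 in the 3 normoxia libraries, at least 31.7-fold higher against the floor of 3 counts per library (edgeR adjusted p 0.0149). In males it had 727, 68 and 107 counts in normoxia and 0 in both hyperoxia libraries, the opposite order. Rpl35a-ps6, a processed ribosomal pseudogene that can share reads with its parent gene, had 0 counts in all hyperoxia libraries and 31, 80 and 58 in normoxia, at least 21.8-fold lower (edgeR adjusted p 0.0363). Its male counts were 124 and 65 in hyperoxia and 0, 142 and 57 in normoxia, so that 1 normoxia library was at 0 there. Both genes are reported as uncertain.

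Of 27 p53 targets, which answer to DNA damage, 7 (25.9%) were higher in each hyperoxia library and 1 was lower. All genes had 6.76% higher and 4.55% lower. Cdkn1a, also counted in the D cyclin list, was among the higher ones. The median of the p53 list was 0.15, and it was 0.01 without NF2 and 0.04 without NF3. The death-promoting gene Pmaip1 lay at 15.9, 17.8 and 13.9 CPM in hyperoxia and 10.3, 11.04 and 10.04 CPM in normoxia (0.60 ± 0.18, edgeR adjusted p 0.353). Phlda3, an inhibitor of AKT, lay at 28.5, 16.7 and 21.5 CPM in hyperoxia and 14.96, 13.6 and 15.8 CPM in normoxia (0.59 ± 0.21), with HF2 close to the highest normoxia library. Antioxidant genes of the NRF2 programme showed 2 higher and 4 lower of 32, with a median of -0.14. Heme oxygenase (Hmox1), the classic oxidant-induced gene, was at 95.7, 198 and 75.0 CPM in hyperoxia and 172, 143 and 128 CPM in normoxia, so HF2 was highest and HF1 and HF3 lowest of all. Gpx3, a secreted glutathione peroxidase, was at 11.7, 17.5 and 12.9 CPM in hyperoxia and 7.64, 7.87 and 9.58 CPM in normoxia (0.75 ± 0.21, edgeR adjusted p 0.316).

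Interferon-stimulated genes had the second highest median of the lists with at least 10 members, 0.89, and this rested on 1 library. Their sum was 498, 911 and 398 CPM in hyperoxia and 480.4, 495 and 395 CPM in normoxia. HF2 stood alone, and without it the median was -0.00, with 15 of 30 values above 0 and 15 below. Of the 30, 7 were still higher in each hyperoxia library, and the count was 7 without HF2 and 14 without NF3. The shares of all genes higher in this way were 6.76%, 9.2% and 16.6%. Ifit3, an antiviral RNA-binding protein, was at 0.5995, 9.5 and 0.798 CPM in hyperoxia and 0.286, 0.249 and 0.186 CPM in normoxia. Oasl2, of the oligoadenylate synthetase family, was at 2.33, 13.6 and 2.32 CPM in hyperoxia and 1.24, 1.07 and 1.49 CPM in normoxia, where HF1 and HF3 were above all normoxia libraries by a little and HF2 by much. Ifi211, an interferon-induced gene with close copies, was at 12.02, 36.3 and 12.7 CPM in hyperoxia and 6.46, 6.84 and 5.35 CPM in normoxia (1.71 ± 0.41, edgeR adjusted p 0.275), and 0.98 without HF2.

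Markers of interstitial macrophages, the other resident macrophages of the lung, were in part high in HF2. Of 15 tested, 12 had their highest value in HF2, but their sum did not set it apart, at 2272, 2301 and 1567 CPM in hyperoxia and 2232, 2469 and 1734 CPM in normoxia. Most of that sum was Mrc1 and Apoe, which are abundant in all 6 libraries, and without them it was 125, 282 and 135 CPM in hyperoxia and 117, 107 and 143 CPM in normoxia. The median log2 fold change over the 15 genes was 0.97, and 0.04 without HF2. Complement C1qa lay at 3.10, 22.3 and 3.77 CPM in hyperoxia and 2.86, 2.74 and 4.83 CPM in normoxia, and Timd4, a receptor for dying cells on resident macrophages, at 0.366, 5.08 and 0.581 CPM in hyperoxia and 0.286, 0.107 and 0.0930 CPM in normoxia. Cd5l, a scavenger protein secreted by tissue macrophages, lay at 0.0333, 36.6 and 2.76 CPM in hyperoxia and 0, 0.890 and 0.604 CPM in normoxia. In each of these 3 genes, all low outside HF2, HF2 was the high library and the other 5 lay far below it. Monocyte markers had a median of 0.53, and 0.14 without HF2. Of 13 tested, 4 (30.8%) were higher in each hyperoxia library and 1 lower, against 6.76% and 4.55% of all genes. These counts were the same without HF2, where the shares of all genes were 9.2% and 6.19%. Their sum was 377, 486 and 348 CPM in hyperoxia and 499, 457 and 648 CPM in normoxia. That sum includes Chil3, given above as secreted by alveolar macrophages. Chil3 was the lower member, at a log2 difference of -0.99, and a large part of the sum in each library. Ly6c2, the surface protein of classical monocytes, was at 0.500, 5.90 and 1.16 CPM in hyperoxia and 0.255, 0.356 and 0.883 CPM in normoxia. Their share in the interferon values of HF2 was not tested.

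Some genes of these cells differed also in HF1 and HF3. The integrin Itgam (CD11b), low on mature alveolar macrophages and high on monocytes and immature cells, lay at 57.7, 91.1 and 45.8 CPM in hyperoxia and 25.6, 27.1 and 28.0 CPM in normoxia (1.27 ± 0.24, edgeR adjusted p 0.0910, 0.94 without HF2). The scavenger receptor Msr1 lay at 55.6, 95.3 and 64.6 CPM in hyperoxia and 30.7, 33.7 and 40.1 CPM in normoxia (1.04 ± 0.22, edgeR adjusted p 0.147). Both were higher in each hyperoxia library, with HF2 on top. Trem2, a lipid-sensing receptor, was at 45.2, 34.2 and 47.3 CPM in hyperoxia and 20.5, 21.5 and 32.0 CPM in normoxia, and the bridging protein Mfge8, which tethers dying cells to phagocytes, at 40.4, 40.3 and 38.5 CPM in hyperoxia and 17.9, 17.3 and 29.8 CPM in normoxia. For neither was HF2 the highest library, and the log2 differences without HF2 were 0.91 and 0.87 (edgeR adjusted p 0.298 and 0.244 with all libraries). Of 23 complement and ficolin genes, 5 (21.7%) were higher and 1 was lower, against 6.76% and 4.55% of all genes. The list median was 0.36, and -0.01 without HF2. The lower one was complement factor B (Cfb), at 71.9, 51.9 and 38.3 CPM in hyperoxia and 89.7, 157 and 207 CPM in normoxia (-1.48 ± 0.31, edgeR adjusted p 0.138). The chemokine receptor Cxcr1 was at 0.633, 0.393 and 0.726 CPM in hyperoxia and 1.62, 3.10 and 7.44 CPM in normoxia (-2.78 ± 0.55, edgeR adjusted p 0.107), and the flagellin receptor Tlr5 at 18.8, 13.2 and 11.8 CPM in hyperoxia and 34.5, 34.9 and 21.4 CPM in normoxia (-1.05 ± 0.24, edgeR adjusted p 0.174).

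**Figure D4:**
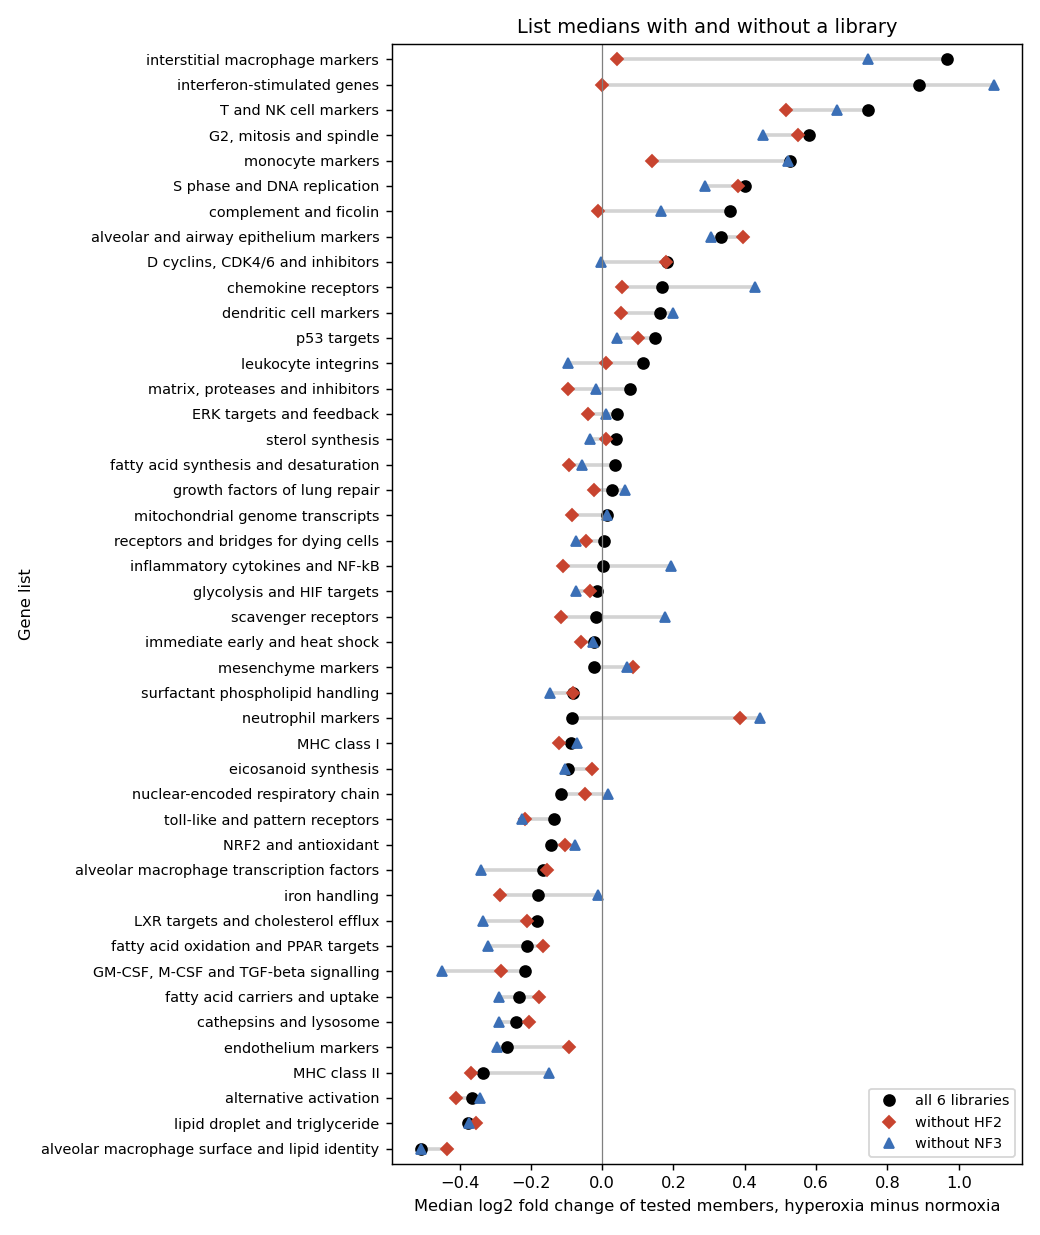
Median log2 fold change, hyperoxia minus normoxia, of the tested members of each list of at least 10, with all 6 libraries (black), without HF2 (red diamonds) and without NF3 (blue triangles). The interferon and interstitial macrophage medians drop to -0.00 and 0.04 without HF2, while the mitosis median is 0.55 and the identity median -0.44.

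Other cell types were followed through their markers. The epithelial list had 3 of 18 members higher and 1 lower, against 6.76% and 4.55% of all genes. Its sum did not overlap between the groups, at 598, 569.7 and 523 CPM in hyperoxia and 515, 494 and 369.9 CPM in normoxia. Most of that sum was the adhesion gene Cdh1, also known from alveolar macrophages, at 375, 346 and 275 CPM in hyperoxia and 273, 272 and 188 CPM in normoxia. Surfactant protein C (Sftpc), the defining gene of type 2 cells, overlapped between the groups at 31.5, 35.5 and 71.1 CPM in hyperoxia and 17.4, 36.7 and 24.5 CPM in normoxia, and the epithelial adhesion gene Epcam was lower in each hyperoxia library, at 4.26, 2.57 and 3.05 CPM in hyperoxia and 6.43, 5.77 and 5.62 CPM in normoxia. The T and NK cell list summed to 105, 67.3 and 91.5 CPM in hyperoxia and 181, 148 and 192 CPM in normoxia. Without Cd2, an adhesion receptor, its sum was 6.76, 14.2 and 17.8 CPM in hyperoxia and 9.897, 6.696 and 11.5 CPM in normoxia, which overlap. Cd2 itself lay at 98.7, 53.1 and 73.7 CPM in hyperoxia and 171, 142 and 180.4 CPM in normoxia (-1.13 ± 0.24, edgeR adjusted p 0.147). The median log2 fold change of the list was 0.75, with 9 of 12 tested members above 0. It was 0.52 without HF2 and 0.66 without NF3. Within the libraries with fewer genes detected it was -0.42, and 0.79 within those with more. In each hyperoxia library 1 member was higher and 1 lower. Endothelial sums were 874, 631 and 812 CPM in hyperoxia and 893, 767 and 1059.5 CPM in normoxia, and mesenchymal sums 39.0, 47.8 and 93.6 CPM in hyperoxia and 72.7, 44.7 and 67.7 CPM in normoxia, and both overlapped. Erythroid genes had a median of -0.93 and, without NF3, of 0.79. The part of these cells in the results above was not tested.

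The remaining immune and repair lists had at most 3 members apart in either direction with all 6 libraries. Of all genes, 6.76% lay higher and 4.55% lower, and 16.6% and 16.3% without NF3. Some of these small lists were above the shares with all 6 libraries, up to 18.8% higher for targets of ERK signalling and 17.6% lower for scavenger receptors. Of 24 inflammatory cytokine and NF-kB genes, 1 was higher and 0 lower, and of 31 pattern receptors 1 was higher and 3 lower (4 and 11 without NF3). MHC class II genes had 0 higher and 1 lower of 12 (median -0.33), and growth factors of lung repair 0 and 1 of 24 (median 0.03). Receptors and bridges for dying cells had 3 and 1 of 21, scavenger receptors 2 and 3 of 17, and iron genes 1 and 3 of 19. In glycolysis and HIF targets 3 and 3 of 32 lay apart (3 and 9 without NF3), with a median of -0.01. Among 19 MHC class I and related genes, 3 were higher and 0 lower. Targets of ERK signalling had 3 and 0 of 16, immediate early and heat shock genes 1 and 1 of 25, alternative activation genes 2 and 1 of 16, chemokine receptors 0 and 2 of 16, and neutrophil markers 1 and 1 of 10. The neutrophil markers apart were Mmp8 (higher) and Csf3r (lower), both given above. The higher MHC class I ones included Raet1d and Raet1e, stress-induced ligands of the NK cell receptor NKG2D from a family of close copies, whose values are uncertain where reads are shared. Raet1d lay at 9.49, 12.8 and 12.9 CPM in hyperoxia and 4.87, 5.31 and 5.07 CPM in normoxia (1.21 ± 0.21, edgeR adjusted p 0.0715), and Raet1e at 11.5, 11.1 and 14.0 CPM in hyperoxia and 6.24, 6.48 and 8.18 CPM in normoxia (0.81 ± 0.20, edgeR adjusted p 0.250).

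The series also holds male libraries, which share no sample with the female ones. No gene of 19948 (0%) differed between the female and the male response by the interaction test of edgeR with Benjamini-Hochberg adjustment. The smallest adjusted p was 0.99999, 334 genes (1.67%) had an unadjusted p under 0.05, and DESeq2 called 3. With 2 hyperoxia male libraries, this does not show that the responses are alike. Of the 14 genes that changed in females, 11 had the same sign in males, and 21 of the 24 when the genes next below the threshold are added (the 22 plotted by library, Gm26244 and Rpl35a-ps6), against 9769 of 17025 genes tested (57.4%). The male log2 fold changes were 2.10 for Ecm1, 1.59 for Ptgs1, -2.71 for Fabp1, -2.25 for Pdk4 and -2.12 for Patj. Ank1 was the exception with counts in every library, at 0.05 in males. Its female minus male difference was -1.22, with an unadjusted edgeR p of 0.00141 and an adjusted p of 0.99999. The list medians in males were 0.77 for mitosis, with 36 of 36 above 0, 0.53 for S phase, -0.42 for identity, -0.24 for lipid droplets, -0.02 for lysosome and 0.13 for interferon-stimulated genes.

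**Figure D5:**
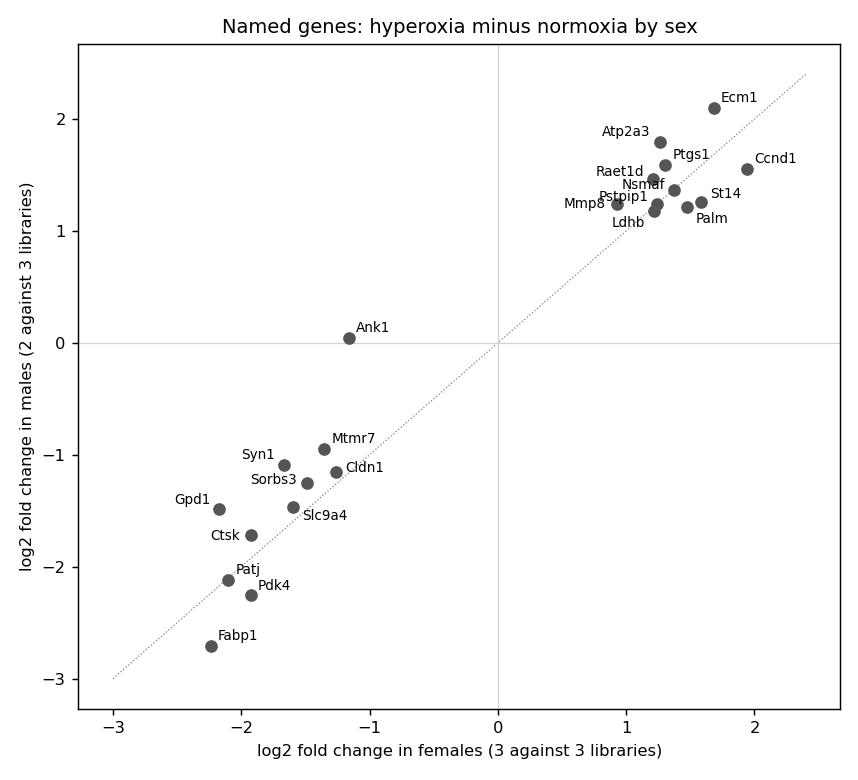
Log2 fold change, hyperoxia minus normoxia, of 22 named genes in females (x axis, 3 against 3 libraries) and in males (y axis, 2 against 3 libraries), each point 1 gene, with a dotted line of equal values. The genes were chosen by their female values, and 21 of 22 have the same sign in males, Ank1 being at 0.05.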

How the data were processed

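The authors deposited 1 table of whole-number read counts per Ensembl gene for 11 libraries of sorted alveolar macrophages, not normalized. A low-input SMART-Seq kit was used, per the labels' protocols, the first 8 nucleotides were molecular identifiers trimmed with the adapter, and some libraries were purified of fragments under 250 bp and resequenced, without a clear statement of which. The use of the identifiers to collapse reads, strand in counting, the annotation release and the sort gates are not stated in the labels or headers, so reads of overlapping or near-identical genes may be split. The submitters' processing notes name the build mm39, the trimmer Trim Galore 0.6.7, Salmon 1.10.1, STAR 2.7.9, DESeq2 1.42 and R 4.3.2, and give no role or order for them. A gene name table matched 51884 of 57180 identifiers (90.7%).

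The 6 female libraries were fitted alone in R 4.3.3 with edgeR 4.0.16 (limma 3.58.1): expression filter (count 10, total 15), TMM scaling, robust quasi-likelihood F-test, Benjamini-Hochberg adjustment over 17039 genes, threshold 0.05. SE values were derived from that test. The interaction was fitted on all 11 libraries, and DESeq2 1.42.0 was an alternative. The method was tested on simulated counts. CPM are relative to the TMM-scaled library size. The floor of 3 counts covers counting error only. Counts of replicates differed by more than sampling noise (smallest chi-square per gene 18.1).

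Lists are described by the members whose libraries do not overlap, beside the same share of all genes, and by their median, with no test. The named genes were all that passed, filled to 12 in each direction by smallest p, plus up to 4 members of smallest p from each of 48 lists, members that pass, and defining markers. Cd5l is named as one of the genes that set HF2 apart. Hmox1, Cdh1 and Plk1 were chosen outside that rule, with their values seen. The members and lists were chosen with earlier results of these data known. The counts without HF2 or NF3 of members that do not overlap, the counts of members that pass without NF3 or with a replicate block, and the interstitial sum without Mrc1 and Apoe were added after the data were seen. Values of 2 single marker genes are not reported here.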

Additional observations from a re-analysis of the deposited data

How the results depend on the processing

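The count of 14 genes (6 higher, 8 lower) depended on the settings. With 1 library left out it ran from 0 to 223 genes, with 0 to 97 higher and 0 to 126 lower. The lowest counts came without HF2 and the highest without NF3, and 13 of the 223 were among the 14. RLE scaling gave 18 genes, all 14 among them. DESeq2 gave 108 (49 higher, 59 lower) and no filter on low counts 127 (58 and 69), each with all 14. A stricter filter gave 7 (3 and 4), all of them among the 14, and the fit without robust estimation gave 2 (1 and 1). All 11 libraries in 1 fit gave 8 (3 and 5), 6 of them shared. A term for the libraries with more genes detected gave 35 (13 and 22), 13 of them shared, and the threshold of 0.10 gave 43 (22 and 21). The interaction count of 0 became 3 with DESeq2, 6 with no filter on low counts and 1 without robust estimation, and ran from 0 to 1 with 1 library left out, the 1 being without NM1. The cause was not tested in any of these. No named gene past the threshold changed sign under any alternative. List medians moved by more than 1 SD of the libraries' list means in 26 of 480 cases.

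The groups share replicate numbers, and a fit with the number as a replicate block called 789 genes (406 higher, 383 lower), 13 of the 14 among them. Fabp1 was the one lost (adjusted p 0.305). In that fit 4.63% of genes passed, and 32 of 36 mitotic and 19 of 36 S phase genes did, all higher, where none passed without the block (Hmmr 3.03e-06, Ccnb2 0.000138, Dlgap5 0.000456, Cdc25c 0.00319). The numbers were not taken to pair the libraries, because the labels name no shared animal, litter or day and 1 pair fell short over all genes. Over all genes tested, deviations from the group means correlated by 0.30 for HF1 with NF1, -0.08 for HF2 with NF2 and 0.51 for HF3 with NF3. HF1 correlated better with NF2 (0.40) and HF2 with NF3 (0.10) than with its own number. Over genes with a mean log2 CPM of at least 1 the 3 values were 0.16, 0.22 and 0.60, so this reading of the numbers depends on the genes used.

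Depth limits the genes near the floor of 3 counts per library, where a count of 0 in a group gives a bound only. With 3 libraries a group, the spread of HF2 and NF3 limits the rest.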

Other observations

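The genes that set HF2 apart from HF1 and HF3 included products of tissue macrophages and of the interferon response. Among genes with a symbol, the largest differences of log2 CPM were for Cd5l (6.08), Ifit3 (3.65), Gbp4 (3.57), a guanylate-binding protein induced by interferon, and Vcam1 (3.28), an adhesion molecule. Gbp4 lay at 17.9 CPM in HF2 and at 1.299 and 1.597 CPM in HF1 and HF3. The lower ones were Rpl27-ps3 (-8.42), Zfp968 (-7.11), Gm14288 (-6.46), Gm12895 (-4.50), the neutrophil granule gene Ngp (-4.35) and the histone gene Hist2h2aa2 (-3.54). Rpl27-ps3, Zfp968, Gm14288 and Gm12895 had 0 counts in HF2, so their differences depend on the prior count.

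In all, 7 tested genes had 0 counts in each library of 1 oxygen group, 3 in normoxia and 4 in hyperoxia. Besides Gm26244 and Rpl35a-ps6, the named ones were Gm28778 (24, 39 and 16 counts in hyperoxia, at least 7.49-fold higher) and Gm20507 (49, 13 and 41 counts in normoxia, at least 13.1-fold lower), both against the floor of 3 counts per library. In males Gm20507 had 32 and 58 counts in hyperoxia and 27, 63 and 0 in normoxia. Gm28778 had 0 and 9 counts in male hyperoxia and 0, 0 and 20 in male normoxia. Neither gene therefore had 1 male oxygen group at 0.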
